A study of Zea mays with 48 samples.

Results

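The maize genes akin1, Snf-4 like and TOR were followed in the pulvinus, the joint at a stem node that bends a fallen grass shoot upright again. They were found by symbol or synonym: each probe set of the array was taken to its Entrez gene, and the RefSeq synonyms of that gene were searched for the 3 names. The search gave 4 probe sets at 3 loci, out of 17545 probe sets on the array, of which 1453 carry a gene in the annotation and 16092 carry none. TOR is locus LOC542211 with 1 probe set, and akin1 is LOC541867 with 1 probe set, for which RefSeq also lists the synonym Snf-4 like. The second Snf-4 like locus is LOC542544 and has 2 probe sets, whose names end in _at and _x_at and which are called by these endings below. The ending _x_at marks a set that may also bind transcripts of related sequence. The genes were taken to be selected on their mean polysomal minus total RNA difference over these powders, so that difference is described here without a test.

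B73 maize of about 6 weeks was laid on its side by turning the pots 90 degrees, and the second pulvinus above the soil was taken after 2, 5, 15, 30 or 60 min. Each reoriented pulvinus was cut into a lower side, which elongates fast, and an upper side, which elongates slowly, while plants kept vertical gave right and left sides. Tissue of 6 plants was pooled per time point, and each frozen powder was divided, with 1 aliquot going to polysomal RNA and the other to total RNA. The 48 Affymetrix Maize Genome Arrays thus come from 24 powders, 20 reoriented and 4 vertical, with 1 powder per side and time in each of 2 growing seasons. All plants were B73 grown in greenhouse pots, and both sides of a time point in a season came from the same pooled plants.

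TOR, short for target of rapamycin, is a large protein kinase that promotes translation and growth when nutrients and energy are plentiful, and S6 kinase is among its best known targets. SnRK1, the plant counterpart of yeast SNF1 and animal AMPK, acts when energy is short and restrains costly biosynthesis. SNF1 and AMPK are complexes of a catalytic kinase with regulatory subunits, and Snf4 is in yeast the noncatalytic gamma subunit. By their names, therefore, only TOR among the genes followed here is a catalytic kinase, while Snf-4 like and akin1 (through its synonym) carry the name of a regulatory subunit. The catalytic kinase itself is represented on the array by SnrK1 (LOC542687) and the TOR target by S6K (LOC542142), and both are given for comparison.

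The deposited values are signal intensities on a linear scale, with 1 array per kind of RNA, side, condition and season. Array medians lay between 174.3 and 216.9, and precision is limited by there being 2 arrays per group. Values were used as log2 of the signal plus 16, and the 10527 probe sets at or above the 40th percentile of mean log2 value were tested, among them all 4 probe sets of akin1, Snf-4 like and TOR. The polysomal array of the upper side at 5 min in season 1 stands apart: its median correlation with the other polysomal arrays of that season was 0.903, the lowest of all 48 arrays. The next lowest, 0.948, was the polysomal array of the same side and time in season 2, so that this group was lowest in both seasons, with the rest at 0.951 and above. Results that rest on the season 1 array are given with and without it. Markers of green leaf tissue, 18 probe sets of 11 genes, had a summed signal of 11654.5 to 27387.6 on reoriented against 24478.6 to 26991.0 on vertical polysomal arrays. On total RNA arrays the sum was 9055.8 to 28960.0 in reoriented and 21858.6 to 24792.4 in vertical pulvini. One of them, pep1, the carboxylase of C4 leaf mesophyll, stayed between 0.7 and 35.0 on all arrays. It does not stand for the list: 12 of the 18 probe sets were bright enough to be tested, among them probe sets of pdk1, rbcS, lhcb5, lhcb6 and Cab-m7. The part of green tissue in the results below was not tested.

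The akin1 and Snf-4 like transcripts, and to a smaller degree TOR, were overrepresented in polysomal RNA relative to total RNA in every powder of the study. Polysomes are messenger RNAs carrying several ribosomes, so the polysomal minus the total log2 signal within 1 powder, called loading here, measures how much of a transcript is in the polysomal fraction. It is relative because every array was brought to nearly the same overall signal. In such bulk powders, fewer cells of a type and less RNA per cell cannot be told apart.

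For akin1, polysomal signal was 419.9 at the lowest, 498.6 at the median and 605.9 at the highest of 24 arrays, against 203.4, 266.1 and 366.3 in total RNA. The polysomal arrays all lay above the total RNA arrays, with no overlap between 24 and 24 arrays. The loading of akin1 averaged 0.87 ± 0.21 (SD over 24 powders), with a lowest value of 0.48, a median of 0.90 and a highest value of 1.21. In linear terms the median powder had 1.92 times as much akin1 signal in polysomal as in total RNA.

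For TOR, polysomal signal was 757.9, 942.5 and 1334.0 at the lowest, median and highest array, against 432.6, 583.2 and 709.8 in total RNA. Here too no total RNA array reached the lowest polysomal array. The loading of TOR averaged 0.72 ± 0.23 (SD, n = 24), from 0.33 through a median of 0.72 to 1.17, and the median ratio was 1.66. Over all tested probe sets, 0.551% had the complete separation of the array sets seen in TOR and akin1.

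The 2 probe sets of Snf-4 like LOC542544 gave the largest differences of the 4. The _at probe set had polysomal signals of 224.6, 354.2 and 487.6 (lowest, median, highest) and total RNA signals of 103.9, 156.9 and 232.4, and the _x_at probe set had 244.2, 340.6 and 444.5 against 79.3, 154.3 and 266.2. For both, the lowest polysomal arrays overlapped the highest total RNA arrays, although within each powder polysomal signal was the higher one. Loading averaged 1.03 ± 0.29 for the _at set, from 0.44 to 1.58, and 1.09 ± 0.42 for the _x_at set, from 0.38 to 1.89 (SD, n = 24 each). Median ratios were 2.06 and 2.12.

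**Figure D1:**
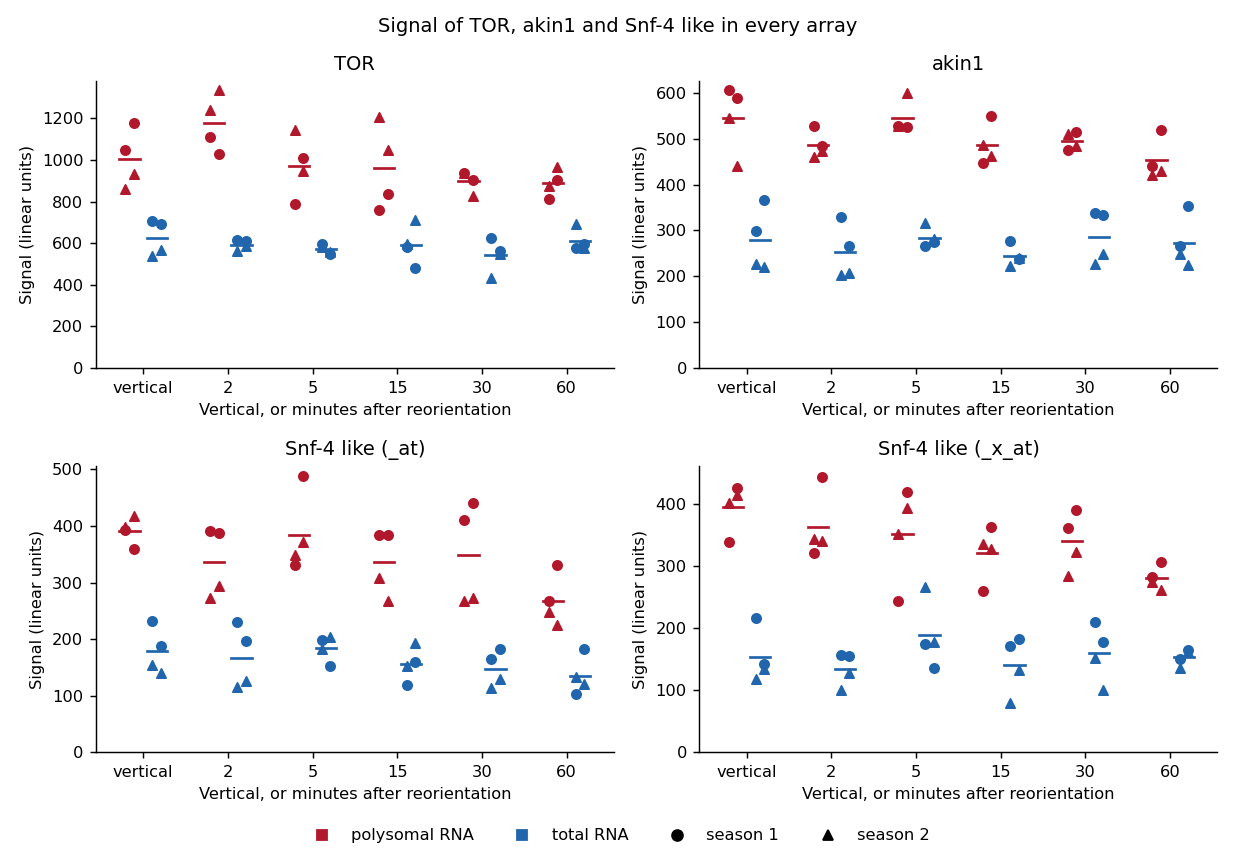
Signal of the 4 probe sets on each of the 48 arrays (linear scale from 0), by condition, with polysomal RNA in red left of total RNA in blue, circles for season 1, triangles for season 2 and lines for means of 4 arrays. Polysomal arrays lie above total RNA arrays throughout for TOR and akin1, and all 4 probe sets have their lowest polysomal mean at 60 min.

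All 4 probe sets had a loading above 0 in 24 of 24 powders, a property of 7.9% of the 10527 probe sets tested. The median loading over all tested probe sets was 0.05, with a 5th percentile of -0.63 and a 95th percentile of 0.48. Within that distribution TOR stood at percentile 99.2, akin1 at 99.7 and both Snf-4 like probe sets at 99.9. A loading that differed from 0 is common on these arrays: 71.6% of probe sets passed the adjusted p threshold for it, 42.1% of all tested being higher and 29.5% lower in polysomal RNA. Since the genes were chosen with these values known, their place in the distribution is a description only. Leaving out the powder of the upper side at 5 min in season 1, the means were 0.73 for TOR, 0.87 for akin1, 1.04 for Snf-4 like _at and 1.11 for Snf-4 like _x_at.

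**Figure D2:**
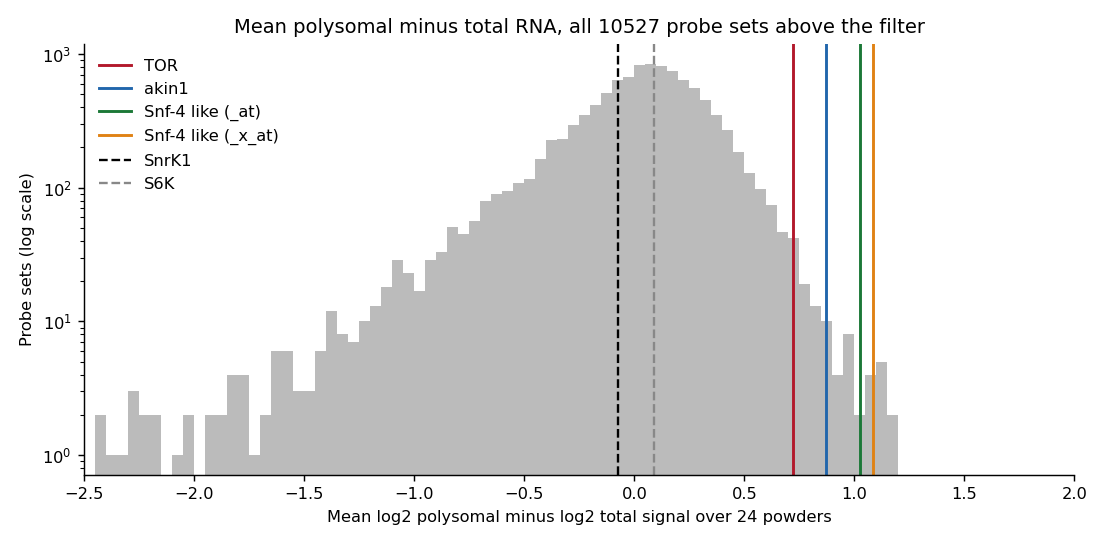
Number of probe sets (log scale) by mean log2 polysomal minus log2 total signal over 24 powders, for the 10527 probe sets tested. Solid lines mark TOR at 0.72, akin1 at 0.87 and the Snf-4 like probe sets at 1.03 and 1.09, in the right tail, and dashed lines mark SnrK1 at -0.07 and S6K at 0.09 in the centre.

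The catalytic kinase SnrK1 did not share the high loading of the Snf-4 like genes. Its polysomal signal was 300.4, 395.4 and 496.8 (lowest, median, highest of 24 arrays) against 352.9, 414.3 and 468.9 in total RNA, and the array sets overlapped. Loading of SnrK1 averaged -0.07 ± 0.25 (SD, n = 24) and was above 0 in 9 of 24 powders. S6K had a loading of 0.09 ± 0.27, above 0 in 12 of 24 powders. Taken powder by powder, the loading of akin1 exceeded that of SnrK1 by 0.94 on average (lowest 0.63, highest 1.73), that of TOR by 0.79 (0.32 to 1.36), that of Snf-4 like _at by 1.10 (0.20 to 1.94) and that of _x_at by 1.16 (0.30 to 1.88). The gap was positive in 24 of 24 powders for each of them. Since the genes were taken to be selected on their loading in these powders, this gap is a description only. The share of all probe sets with such a gap to SnrK1 was not computed.

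**Figure D3:**
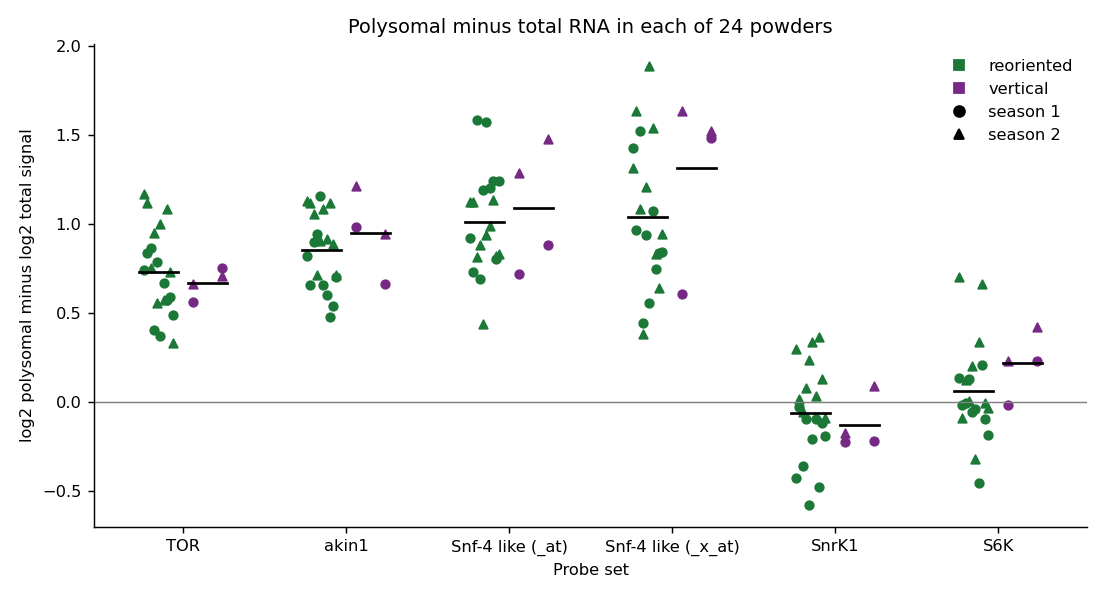
Log2 polysomal minus log2 total signal in each of 24 powders, with reoriented powders (green, n = 20) left of vertical powders (purple, n = 4), circles for season 1, triangles for season 2 and lines for means. The 4 probe sets of TOR, akin1 and Snf-4 like lie above 0 in every powder, while SnrK1 and S6K spread to both sides of 0.

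Loading was above 0 in every reoriented and every vertical powder for these genes. In reoriented powders (n = 20) against vertical powders (n = 4), mean loading was 0.85 ± 0.21 against 0.95 ± 0.22 for akin1 and 0.73 ± 0.25 against 0.67 ± 0.08 for TOR. It was 1.01 ± 0.28 against 1.09 ± 0.35 for Snf-4 like _at and 1.04 ± 0.41 against 1.31 ± 0.47 for Snf-4 like _x_at (SD). The ranges overlapped for all 4. The fitted change of loading, averaged over the 5 times, was -0.10 (SE 0.12) for akin1, 0.06 (0.12) for TOR, -0.08 (0.18) for _at and -0.27 (0.20) for _x_at, each with a limma adjusted p of 0.997. The vertical powders are part of the mean loading on which the genes were known, so this comparison is not wholly independent of the choice. No probe set of the 10527 passed the limma test for that averaged change (0.0%), while 451 had an unadjusted p under 0.05.

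By time, the order of the loading means differed between genes, and most neighbours in the order lay closer together than the spread of the 4 powders within a time. For TOR the mean loading was 0.67 ± 0.08 in vertical pulvini, then 0.97 ± 0.21 at 2 min and 0.74 ± 0.24 at 5 min. The later means were 0.68 ± 0.27 after 15 min, 0.72 ± 0.24 after 30 min and 0.53 ± 0.17 after 60 min (SD, n = 4 each). The step between 2 min and the next highest mean, 5 min, was 0.22, about as large as the SD within those times. For akin1 it was 0.95 ± 0.22 in vertical pulvini, then 0.93 ± 0.23, 0.90 ± 0.14, 0.95 ± 0.22, 0.78 ± 0.29 and 0.71 ± 0.14 from 2 to 60 min. Both genes had their lowest mean at 60 min, and the powders of that time overlapped those of other times.

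For Snf-4 like _at the mean loading stayed between 0.92 ± 0.21 at 60 min and 1.14 ± 0.11 at 30 min, and for _x_at between 0.81 ± 0.13 at 60 min and 1.34 ± 0.28 at 2 min. All 4 probe sets, 2 of them of the same locus, thus had their lowest mean at 60 min. The next mean was higher by only 0.07 for akin1, 0.14 for TOR, 0.05 for _at and 0.04 for _x_at. The share of all probe sets with their lowest mean at 60 min was not counted. None of the loading shifts at single times passed in its own limma contrast. Limma's moderated F, which tests the 5 times jointly, gave adjusted p values of 0.845 for akin1, 0.717 for TOR, 0.979 for _at and 0.717 for _x_at. That joint test called 0 of 10527 probe sets (0.0%). At 60 min alone the fitted loading change was -0.24 (SE 0.16) for akin1, -0.14 (0.16) for TOR, -0.16 (0.24) for _at and -0.50 (0.25) for _x_at, and 309 probe sets of the array had an unadjusted p under 0.05 there with 0 past limma's adjusted threshold.

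When polysomal RNA was taken alone, reoriented against vertical, the _at probe set of Snf-4 like was lower at 60 min. This call was lost when plant pools entered as random blocks. The _at probe set had polysomal signals of 331.0 and 224.6 in the lower side and 267.5 and 248.7 in the upper side at 60 min (season 1 first), against 359.0 and 417.2 in the right side and 392.5 and 398.6 in the left side of vertical pulvini. All 4 arrays at 60 min lay below all 4 vertical arrays. The fitted change was -0.53 (SE 0.14, limma adjusted p = 0.0382). Within seasons it was -0.75 in season 2 and -0.32 in season 1. It was the only reorientation change of the 4 probe sets that passed, at any time and in either kind of RNA, and 5.23% of all tested probe sets passed in that comparison, 2.23% of all tested downward.

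The _x_at probe set of the same locus had 307.7 and 261.6 in the lower side and 282.8 and 275.7 in the upper side at 60 min, against 426.5 and 415.5 in the right and 339.8 and 403.0 in the left side of vertical pulvini. The 2 sets of 4 arrays again did not overlap, as in 4.84% of all probe sets that were lower at 60 min without overlap. The fitted change was -0.47 (SE 0.14), just short of the threshold (limma adjusted p = 0.0588). The adjusted p of the _at set ranged from 0.0253 to 0.275 over the alternatives: it was 0.124 when plant pools entered as random blocks and 0.275 with the season left out of the fit. Leaving out any 1 of the 4 arrays at 60 min, or a vertical array of season 2, also ended the call, with adjusted p values of 0.0789 to 0.149.

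The other values of that comparison did not pass. At 60 min in polysomal RNA, akin1 changed by -0.25 (SE 0.10, limma adjusted p = 0.151) and TOR by -0.17 (0.14, adjusted p = 0.547). Total RNA of Snf-4 like at 60 min differed between its probe sets, with -0.37 (SE 0.20, adjusted p = 0.338) for _at and 0.03 (0.21, adjusted p = 0.953) for _x_at. Averaged over the 5 times, the polysomal changes were -0.13 (SE 0.08) for akin1, -0.04 (0.11) for TOR, -0.24 (0.11) for _at and -0.26 (0.10) for _x_at, with limma adjusted p values of 0.348, 0.886, 0.217 and 0.179. In that averaged comparison 4.31% of probe sets passed.

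In total RNA none of the 4 probe sets passed at any time or on average. The averaged changes were -0.04 (SE 0.11) for akin1, -0.10 (0.10) for TOR, -0.17 (0.16) for _at and 0.02 (0.16) for _x_at, with limma adjusted p values of 0.883, 0.634, 0.594 and 0.968, in a comparison where 3.53% of probe sets passed. Of all tested probe sets, 0.0665%, 0.057%, 9.05%, 5.12% and 3.98% passed in total RNA after 2, 5, 15, 30 and 60 min, and 0.057%, 2.73%, 8.22%, 5.89% and 5.23% in polysomal RNA. For TOR in total RNA, the means of the 6 conditions ran from 9.11 ± 0.22 at 30 min to 9.31 ± 0.19 in vertical pulvini on the log2 scale (SD, n = 4 each). In polysomal RNA the TOR means ran from 9.82 ± 0.10 at 60 min to 10.21 ± 0.16 at 2 min, with vertical pulvini at 9.98 ± 0.19.

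The early TOR value in polysomal RNA differed in sign between the seasons. Polysomal TOR signal was 1030.3 and 1334.0 in the lower and 1109.4 and 1237.7 in the upper side at 2 min, against 1175.3 and 931.9 in the right and 1046.9 and 859.5 in the left side of vertical pulvini. The ranges overlapped, with both season 2 arrays at 2 min above every vertical array. Within seasons, the mean of the 2 sides at 2 min minus that of the 2 vertical sides was 0.51 in season 2 and -0.05 in season 1 in polysomal RNA, and 0.46 in season 2 and 0.13 in season 1 in loading. The fitted change was 0.23 in polysomal RNA (SE 0.14, limma adjusted p = 0.533) and 0.29 in loading (SE 0.16, adjusted p = 0.963).

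**Figure D4:**
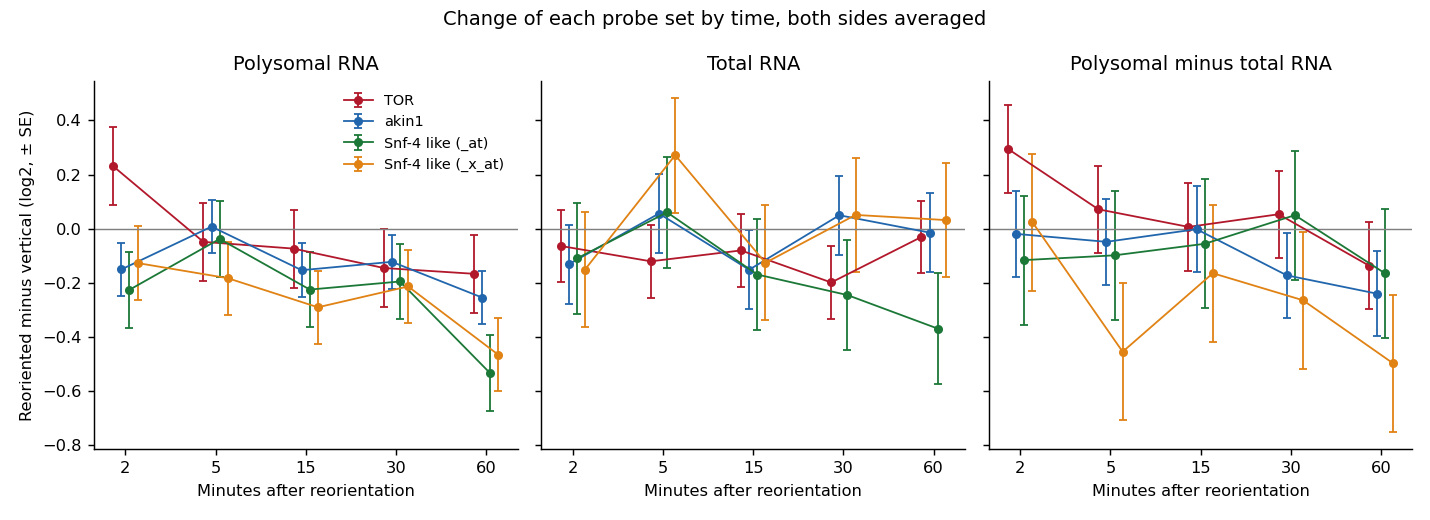
Fitted log2 change, reoriented minus vertical with both sides averaged (points, ± SE of the limma contrast), at 2 to 60 min for each probe set, in polysomal RNA, total RNA and loading. In polysomal RNA every probe set is lowest at 60 min (-0.53 and -0.47 for Snf-4 like _at and _x_at), and TOR at 2 min (0.23) is the highest polysomal value.

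The lower and the upper side of reoriented pulvini did not differ past the adjusted threshold for any of the 4 probe sets. Averaged over the 5 times, lower minus upper loading was 0.07 (SE 0.10) for akin1, 0.03 (0.10) for TOR, -0.05 (0.15) for Snf-4 like _at and 0.23 (0.16) for _x_at, each with a limma adjusted p of 0.993. In polysomal RNA the averaged side difference was 0.06 (SE 0.06) for akin1, 0.01 (0.09) for TOR, 0.08 (0.09) for _at and 0.21 (0.09) for _x_at. In total RNA it was -0.01 (SE 0.09), -0.02 (0.08), 0.13 (0.13) and -0.02 (0.13) in the same order of genes, with limma adjusted p values of 0.9995 and above in both kinds of RNA. No probe set on the array passed for the averaged side difference in polysomal RNA, total RNA or loading (0.0%), with 475, 146 and 357 at an unadjusted p under 0.05. The largest side difference among the 4 probe sets was that of Snf-4 like _x_at at 5 min. Its loading there was 1.52 and 1.08 in the lower side and 0.45 and 0.38 in the upper side (season 1 first). The fitted difference was 0.89 (SE 0.36, limma unadjusted p = 0.025, adjusted p = 0.323). In polysomal RNA alone it was 0.45 (SE 0.19, adjusted p = 0.210), in a comparison where 2.83% of probe sets passed.

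The low value of the upper side in season 1 uses the polysomal array that stands apart, where the _x_at signal was 244.2, against 351.7 in season 2. Without that powder the polysomal side difference was 0.17 (adjusted p = 0.876) and the loading difference 1.07 (adjusted p = 0.998). Without the upper powder of season 2 the polysomal difference was 0.74 and passed (limma adjusted p = 0.0288), so that the call would rest on the array that stands apart. Total RNA signal of the upper side was 266.2 in season 2 and 175.0 in season 1, above the 178.3 and 136.3 of the lower side. The loading difference thus holds a difference in total RNA as well. The _at probe set of the same locus had side differences of 0.41 (SE 0.34, adjusted p = 0.611) in loading and 0.31 (0.20, adjusted p = 0.410) in polysomal RNA at 5 min. In vertical pulvini, right minus left loading was -0.29 (SE 0.22) for akin1, 0.12 (0.23) for TOR, 0.17 (0.34) for _at and 0.38 (0.36) for _x_at, none passing (limma adjusted p = 0.999 each).

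Between growing seasons, akin1 in total RNA and the _at probe set of Snf-4 like in polysomal RNA differed. The polysomal _x_at set of the same locus did not pass. Total RNA signal of akin1 was 203.4 at the lowest, 226.3 at the median and 315.7 at the highest array in season 2, against 238.4, 288.6 and 366.3 in season 1, a fitted difference of -0.31 (SE 0.08, limma adjusted p = 0.0053). The ranges overlapped. Polysomal signal of Snf-4 like _at was 224.6, 283.4 and 417.2 in season 2 against 267.5, 386.7 and 487.6 in season 1, a difference of -0.30 (SE 0.08, adjusted p = 0.00516), again with overlap. Season differences are widespread on the array: 56.7% of probe sets passed in total RNA and 55.6% in polysomal RNA.

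Polysomal akin1 differed by -0.09 (SE 0.06, limma adjusted p = 0.209) and polysomal _x_at by -0.02 (0.08, adjusted p = 0.798) between the seasons. In total RNA both Snf-4 like sets were lower in season 2 without passing, by -0.23 (SE 0.12, limma adjusted p = 0.115) for _at and -0.29 (0.12, adjusted p = 0.0544) for _x_at. The _x_at difference passed when any 1 of the 4 total RNA arrays at 5 min was left out, with adjusted p values of 0.0117 to 0.0246. TOR differed by -0.05 (SE 0.08, adjusted p = 0.593) in total and 0.12 (0.08, adjusted p = 0.248) in polysomal RNA. Loading was higher in season 2 than in season 1 by 0.23 (SE 0.09) for akin1, with means of 0.98 and 0.76, and by 0.17 (0.09) for TOR, with means of 0.80 and 0.64. For Snf-4 like _x_at the difference was 0.27 (SE 0.15), with means of 1.22 and 0.95, and for _at it was -0.08 (0.14), with means of 0.99 and 1.06. None of the 4 passed (limma adjusted p = 0.107 for akin1, 0.244 for TOR, 0.238 for _x_at and 0.745 for _at), while 14.8% of probe sets passed for loading. The akin1 difference was 0.27 without the upper 5 min powder of season 1, where it passed (adjusted p = 0.0496), and 0.27 without that of season 2, where it did not (adjusted p = 0.0540). SnrK1 loading differed by 0.36 and passed (limma adjusted p = 0.0111), with 9 of 12 powders above 0 in season 2 and 0 of 12 in season 1.

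The reorientation change was also set side by side by season, in a comparison added after the data were seen. Averaged over times, polysomal Snf-4 like _at changed by -0.49 in season 2 and 0.01 in season 1, a difference between seasons of -0.50 (SE 0.18, limma adjusted p = 0.179). Polysomal TOR changed by 0.21 in season 2 and -0.29 in season 1, a difference of 0.50 (SE 0.19, adjusted p = 0.200). For akin1 and _x_at the polysomal differences between seasons were 0.23 (SE 0.14) and -0.15 (0.21). In loading, Snf-4 like _at changed by -0.47 in season 2 and 0.32 in season 1, a difference of -0.79 (SE 0.32, unadjusted p = 0.0266, limma adjusted p = 0.656). The loading differences of the others were -0.04 (SE 0.25) for akin1, 0.17 (0.25) for TOR and -0.32 (0.40) for _x_at. In total RNA the differences were 0.27 (SE 0.22) for akin1, 0.34 (0.19) for TOR, 0.29 (0.31) for _at and 0.17 (0.33) for _x_at. No probe set of the 3 genes passed, and 1.14% of all tested passed in polysomal RNA, 3.1% in total RNA and 0.0095% in loading.

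The 2 probe sets of Snf-4 like followed each other in polysomal RNA more than in total RNA. Over the 24 powders, after subtraction of the season means, their log2 signals correlated with a Pearson r of 0.73 in polysomal RNA and 0.30 in total RNA, and their loadings with 0.28. Between loci, loading correlated weakly, with r of 0.36 for TOR and akin1, 0.31 for TOR and _x_at, 0.30 for akin1 and _x_at and 0.14 for akin1 and _at. With SnrK1 the r was 0.23 for TOR, -0.13 for akin1 and -0.27 for _at. These values describe powders that share plant pools and arrays, and carry no test.

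Among the named probe sets above the filter, those whose loading varied most like that of TOR over the 24 powders were lpa1 (r = 0.79), also named MRP4, a transporter gene of low phytic acid mutants, lon1 (0.78), a Lon-type protease, and ws1 (0.75). For akin1 they were GT1 (0.64), vdac1a (0.59), a voltage-dependent anion channel of the outer mitochondrial membrane, and GST3 (0.59), a glutathione S-transferase. For Snf-4 like _at they were CesA-6 (0.61), a cellulose synthase, mir2 (0.56) and hox1a (0.55), a homeobox gene, and for _x_at ws1 (0.62), UGlcAE (0.58) and eif3 (0.54), an initiation factor. The 99th percentile of r over all tested probe sets was 0.65 for TOR, 0.49 for akin1, 0.50 for _at and 0.52 for _x_at. Each r named here lies above it, but was picked as among the highest of 918 or 919 compared. How many of the 10527 probe sets reach such r values was not counted.

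Genes of translation, the process TOR promotes, were more often lower than higher in polysomal RNA. The list held 24 tested probe sets of 14 genes, of which 4 were higher and 15 lower in polysomal than in total RNA past the limma threshold, where 42.1% of all probe sets were higher and 29.5% lower. Their median loading was -0.24, against 0.05 over all probe sets. The lowest values were those of TCTP (-0.62 for its lowest probe set, SE 0.05), the translationally controlled tumour protein, rps6 (-0.54 for its lowest probe set, SE 0.05), the ribosomal protein that S6 kinase phosphorylates, and TIF (-0.51, SE 0.04), an initiation factor. The cap-binding factor eIF4E1 stood at -0.48 (SE 0.05), and rps6-2, a second ribosomal protein S6 gene, at -0.47 (SE 0.03). Higher in polysomal RNA were 1 of 2 probe sets of eif7 (0.23, SE 0.04), eif3 (0.16, SE 0.03), eIF-5 (0.12, SE 0.03) and 1 of 4 probe sets of TCTP (0.29, SE 0.08). The probe sets of TCTP thus disagreed in sign.

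**Figure D5:**
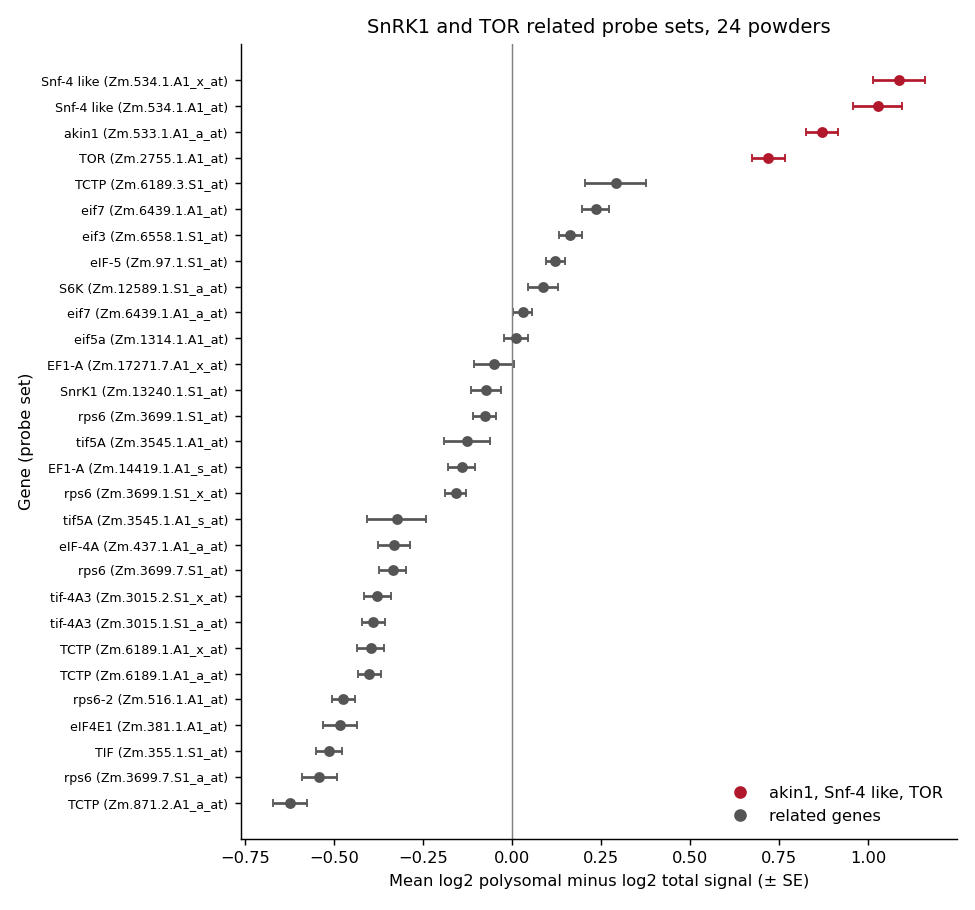
Mean log2 polysomal minus log2 total signal over 24 powders (± SE of the limma fit) for TOR, akin1 and Snf-4 like (red) and for SnrK1 and the tested probe sets of TOR and translation genes (grey). The red points lie between 0.72 and 1.09, and the grey points between -0.62 and 0.29.

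The list of sugar starvation and nitrogen remobilisation genes had 10 tested probe sets of 9 genes, 5 of them higher and 2 lower in polysomal RNA, with a median of 0.15. These counts are near those of all probe sets, of which 42.1% were higher and 29.5% lower. The cysteine proteases see2a (0.32, SE 0.03) and see2b (0.23, SE 0.05) and the alcohol dehydrogenase genes adh2 (0.30, SE 0.04) and adh1 (0.15, SE 0.04) were among the higher ones. Glutamate dehydrogenase gdh1 (-0.40, SE 0.04) was lower. A further list was matched by name to enzymes with plant forms that are SnRK1 substrates. Both of its tested probe sets were higher, as 42.1% of all were. They were the nitrate reductase gene NNR1 (0.24, SE 0.08) and pfk1 (0.30, SE 0.04). Whether pfk1 itself is a substrate was not checked. Of 2 fructokinase genes, frk1 was higher (0.16, SE 0.03) and frk2 did not pass (0.05, SE 0.03). None of these values reached the 0.72 of TOR.

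With reorientation, loading did not pass for any tested probe set of these lists. In the signal itself S6K rose at 15 min. Its total RNA signal was 227.0 and 310.1 in the lower and 211.1 and 392.8 in the upper side at 15 min (season 1 first), against 143.5 and 132.9 in the right and 156.1 and 124.8 in the left side of vertical pulvini. All 4 arrays at 15 min lay above all vertical arrays, as in 6.63% of probe sets. The fitted change was 0.92 (SE 0.17, limma adjusted p = 0.00387) in a comparison where 9.05% of probe sets passed. With pools as blocks the adjusted p was 0.0475, and the call held without any 1 of the 24 arrays.

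In polysomal RNA, S6K signal at 15 min was 218.0 and 359.9 in the lower and 205.4 and 312.2 in the upper side, against 171.2 and 183.7 in the right and 154.4 and 149.3 in the left side of vertical pulvini, again without overlap, as in 6.73% of probe sets. The change was 0.65 (SE 0.15, limma adjusted p = 0.0117), and with the pool as a block the adjusted p was 0.0535. The loading of S6K at 15 min changed by -0.27 (SE 0.15) without passing. TOR itself changed at 15 min by -0.08 (SE 0.13, adjusted p = 0.747) in total and -0.07 (0.14, adjusted p = 0.807) in polysomal RNA, and SnrK1 by -0.10 and -0.02 (adjusted p = 0.545 and 0.916).

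At 30 min, polysomal S6K rose by 0.55 (SE 0.15, limma adjusted p = 0.0386, 0.135 with the pool block), and rps6-2 rose by 0.23 at 15 min (adjusted p = 0.0480, 0.138 with the pool block). The remaining calls in the lists were smaller or were mostly lost with pools as blocks. In total RNA, pfk1 fell by 0.43 on the log2 scale at 30 min (SE 0.09, limma adjusted p = 0.0138, 0.176 with the pool as a block) and by 0.27 averaged over times (adjusted p = 0.0471, 0.342 with the pool block), tif5A fell by 0.37 at 15 min (adjusted p = 0.0382, 0.173 with the pool block), and 2 probe sets of TCTP rose by 0.23 and 0.25 at 15 min (0.264 and 0.228 with the pool block). In polysomal RNA, ccp2, a cysteine protease gene, fell by 0.62 at 60 min (adjusted p = 0.0197, 0.0719 with the pool block), TIF rose by 0.30 and rps6-2 by 0.26 at 60 min, and frk1 rose by 0.61 at 30 min (0.145, 0.131 and 0.0954 with the pool block). Of the elongation factor gene EF1-A, only an _x_at probe set had such a call. It fell by 0.79 at 5 min (limma adjusted p = 0.00403, 0.0168 with the pool block), a change of -0.77 without the array that stands apart. Its side difference at 5 min, lower minus upper, was 1.01 (adjusted p = 0.00814), and without the array that stands apart it was 0.99 with an adjusted p of 0.170, and without that of season 2 it was 1.04 with 0.00719.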

How the data were processed

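The authors deposited 1 table of signal intensity per probe set, made with GCOS per the submitters' processing notes. No GCOS version, scaling target, detection call or genome build is given in the sources used here. With 2% trimmed, array means ran from 495.8 to 499.1, so signals were used as deposited. They reach 14970.1 and include 10 zeros.

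Values were computed as log2(signal + 16), which understates changes of dim probe sets. Probe sets under the 40th percentile of mean log2 value were left out. Models were fitted with limma 3.58.1 (R 4.3.3, statmod 1.5.0; lmFit, eBayes with a trend) on 24 total RNA arrays, 24 polysomal RNA arrays and 24 powder differences, with 12 groups and season as fixed effects and 11 residual degrees of freedom. Tests were two-sided, with Benjamini-Hochberg adjustment over 10527 probe sets and a threshold of 0.05. The fits were tested on simulated data with independent noise for each array. Such data hold no correlation within plant pools, so this could not show how the p-values behave under it.

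The repetition number was taken as the growing season, as the series design text states. As a check of this pairing, season 1 departures from group means correlated between groups with a median r of 0.621 in total RNA (0.505 to 0.892 over 66 pairs) and 0.661 in polysomal RNA (-0.0268 to 0.896). The correlation within a plant pool was 0.575, 0.380 and 0.195 in total RNA, polysomal RNA and loading. With 2 arrays per group, p-values measure how group values differ between the seasons beyond the season shift shared by all groups. The 2 sides of a plant pool count there as separate units, except where pools enter as random blocks.

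Gene names come from RefSeq (Zm-B73-REFERENCE-NAM-5.0) through the Entrez ID of the array annotation, found for 1377 of the 1453 annotated probe sets. Every probe set named akin1, Snf-4 like or TOR was examined in every comparison, with single times and sides that did not pass given partly as counts, and list examples are those past the threshold first, then the brightest. The genes and lists were chosen with earlier results of these data known. List matches with another function (terpene synthases among tps genes, for example) were left out, which emptied the pollen marker list (0 kept). Seed markers (11 probe sets) had summed signals of 484.0 to 1370.0, mostly from 1 probe set of gz27. The alternatives were pseudocounts of 1 and 64, no filter, quantile normalization, no season term, pools as random blocks, no trend, and leaving out each array.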

Additional observations from a re-analysis of the deposited data

Results flagged for a closer look

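Within conditions of 4 arrays or powders, 3 of 72 sets of values held 1 value far from the other 3, which chance gives in about 1 of 20 sets. The log2 polysomal signal of akin1 in the lower side at 5 min in season 2 was 9.27, against 9.09 for the nearest of the others. The loading of Snf-4 like _at in the upper side at 60 min in season 1 was 1.24, and the nearest was 0.83. The loading of Snf-4 like _x_at in the left side of vertical pulvini in season 1 was 0.61, and the nearest was 1.48. Their source was not tested.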

How the results depend on the processing

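The mean loadings of the 4 probe sets stayed within 1 SD under every alternative (pseudocounts of 1 and 64, no filter, quantile normalization, and each powder left out). Of 1321 alternatives to the 43 tested results of TOR, akin1 and Snf-4 like, 1248 kept direction and side of the threshold, 9 lost a call, 9 gained one and 55 turned in sign, in 13 results, none of them called and the largest of size 0.43. Quantile normalization gave -0.0036 for Snf-4 like _x_at in total RNA, reoriented minus vertical, 0.0039 for akin1 in total RNA, lower minus upper, and 0.025 for polysomal _x_at, season 2 minus season 1. With 1 array left out, reoriented minus vertical ranged in total RNA from -0.14 to 0.065 for akin1 and -0.12 to 0.15 for _x_at, in polysomal RNA from -0.16 to 0.081 for TOR, and in loading from -0.00034 to 0.12 for TOR and -0.26 to 0.11 for _at. Lower minus upper ranged in total RNA from -0.071 to 0.047 for akin1, -0.086 to 0.046 for TOR and -0.12 to 0.068 for _x_at (-0.90 to 0.033 at 5 min), in polysomal RNA from -0.051 to 0.067 for TOR, and in loading from -0.023 to 0.078 for TOR and -0.13 to 0.025 for _at. Polysomal season 2 minus season 1 of _x_at ranged from -0.073 to 0.0056. The cause of these turns was not tested.

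All 9 lost calls are the fall of polysomal Snf-4 like _at at 60 min. Its adjusted p was 0.0563 without the filter, where more probe sets are tested, 0.275 with no replicate block (season pairing left out of the fit) and 0.124 with the pool as a random block. Its value ranged from -0.67 to -0.39 with 1 array left out, and the calls were lost without any of the 4 arrays at 60 min or either vertical array of season 2. The _x_at probe set passed there with quantile normalization (0.0416) and without either upper 5 min array (0.0289 and 0.0291). Over all probe sets, called counts moved by more than 1.5 times with no replicate block and with the pool block: 52 and 45 in place of 372 in total RNA, 116 and 152 in place of 454 in polysomal RNA, and 55 and 154 in place of 551 in polysomal RNA at 60 min. With 1 array left out these counts ran from 79 to 427, 117 to 586 and 159 to 704, and those of the side differences averaged over times from 0 to 22 in polysomal RNA and 0 to 235 in loading, each highest without the upper 5 min powder of season 2. Signal over background is not known here, since no detection call was used.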
